A study of Mus musculus with 6 samples.

Results

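A group of 10 genes of nitric oxide and cGMP synthesis and signalling, matched by GENCODE symbol to Ensembl identifiers, was followed among the 55335 genes counted in each library of mouse striatum. They are Nos1 and Nos1ap, the soluble guanylyl cyclase subunits Gucy1a1, Gucy1a2 and Gucy1b1, the peptide gene Nppc, the receptor cyclases Npr1 and Npr2, and the kinases Prkg1 and Prkg2. Gene-level RNA-seq counts were made for 3 striatum samples of C57 mice given the genotype PDE5A Overexpressing in the labels and 3 control striatum samples, of genotype WT. PDE5A is a phosphodiesterase that breaks down cGMP, and the study asked which molecular changes follow its overexpression in the striatum. The means of overexpression, the cells that carried it, what the control animals received, and the animals' age and sex were not stated in the sources used here.

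Nitric oxide, made from arginine by nitric oxide synthases, diffuses to nearby cells and activates soluble guanylyl cyclase, an obligate pair of one alpha and one beta subunit. Natriuretic peptides instead activate cyclases that are part of their own receptors in the cell membrane. The cGMP made either way acts on cGMP-dependent kinases, ion channels and phosphodiesterases. In the striatum, neuronal nitric oxide synthase is known from a class of interneurons that also carry somatostatin and neuropeptide Y, and soluble guanylyl cyclase is abundant in medium spiny neurons, the main neurons of the region.

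The overexpression libraries held 39271447, 33013698 and 36921899 counts (replicates 1 to 3) and the control libraries 41720320, 42288789 and 40653784. Pde5a checked the labels, at 760, 700 and 592 CPM (counts scaled to a common library size, adjusted by the TMM method) in overexpression and 3.72, 4.14 and 6.09 CPM in control. Markers of striatal neurons were abundant in every library, but the libraries differed in markers of other brain regions. Summed over 10 choroid plexus markers (Ttr, Kl, Clic6 and others), the level was 914, 3414 and 316 CPM in overexpression and 321 to 451 CPM in control. Summed over 8 cortical glutamatergic markers (Slc17a7, Tbr1 and others), it was 313, 662 and 1270 CPM in overexpression and 546, 113 and 1008 CPM in control. Overexpression replicates 1 and 2 thus stood apart by choroid plexus markers, and control replicate 2 by its low cortical level. Summed over 8 thalamic neuron markers (Slc17a6, Tcf7l2 and others), the groups did not overlap. Nor did they when summed over 3 markers of oligodendrocyte precursors (Pdgfra, Cspg4 and Gpr17). Of the single thalamic markers, Slc17a6, Lhx9, Rgs16 and Synpo2 overlapped between groups, and Tcf7l2, Prkcd, Gbx2 and Ntng1 did not. Among all genes tested, 8.93% had groups that did not overlap. The thalamic sum was 66.5, 67.0 and 76.1 CPM in overexpression and 116.7, 88.5 and 86.2 CPM in control, with Lhx9 at 0 in overexpression replicate 1. The precursor sum was 109, 106 and 106 CPM in overexpression and 120, 125 and 129 CPM in control. The part of these cells in the values below was not tested.

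Gucy1a1 and Gucy1b1 lie next to each other on the minus strand of chromosome 3, 17737 bases apart. Both were highest in control replicate 2 and lowest in overexpression replicate 3, as was Nos1 on chromosome 5. The promoters of the 2 neighbours are shown, from RefSeq on GRCm38.p6 (the sequence of mm10). They run 5′ to 3′ on the gene's own strand from 250 bases before an annotated start to 50 after it. A link between these sequences and the levels was not tested. Capitals mark matches on either strand to the CCAAT box (CCAAT) and the GC box (GGGCGG), which do not overlap here.
Gucy1a1 at chr3:82145601-82145900: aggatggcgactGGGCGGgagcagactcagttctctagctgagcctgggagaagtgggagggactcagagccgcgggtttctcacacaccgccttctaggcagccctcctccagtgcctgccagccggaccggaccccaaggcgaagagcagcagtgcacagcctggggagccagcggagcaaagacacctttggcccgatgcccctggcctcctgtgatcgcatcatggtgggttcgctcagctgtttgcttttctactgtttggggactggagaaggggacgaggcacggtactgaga
Gucy1b1 at chr3:82074662-82074961: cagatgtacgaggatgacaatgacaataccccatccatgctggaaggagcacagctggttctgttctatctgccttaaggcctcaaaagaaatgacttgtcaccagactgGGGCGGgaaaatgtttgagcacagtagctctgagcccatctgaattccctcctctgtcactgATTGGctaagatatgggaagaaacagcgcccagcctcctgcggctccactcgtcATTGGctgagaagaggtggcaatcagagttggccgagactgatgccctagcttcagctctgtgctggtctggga
The Gucy1a1 window, the first of 2 listed for that gene, held 1 GC box and 0 CCAAT boxes, and the Gucy1b1 window held 1 GC box and 2 CCAAT boxes, both on the opposite strand. Of 32851 promoters of this length, 35.7% held a GC box and 37.4% a CCAAT box. Neither window held the cyclic AMP response element (TGACGTCA), found in 1.79% of promoters, or a TATA box (TATAAA), found in 13.6%. The second Gucy1a1 window, not printed, held 0 GC boxes and 0 CCAAT boxes.

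None of the 10 genes passed the test, an adjusted p of 0.05 in the quasi-likelihood test of edgeR, with Benjamini-Hochberg adjustment over all 19809 genes tested. This threshold was passed by 0.00505% of all genes tested, which is 1 gene, Pde5a. Adjusted p was 1.0 for each of the 10 genes. At an unadjusted p under 0.05 there were 0 of the 10, where the share among all genes was 3.89%. The DESeq2 Wald test called 0 of the 10 and 83 of all genes, and limma-voom 0 and 5. The overexpression and control values overlapped for every one of the 10, while 8.93% of all genes tested had groups that did not overlap. Of the 10, 4 had positive and 6 negative log2 fold changes, with a median of −0.04, beside a median of 0.00 over all genes.

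**Figure D1:**
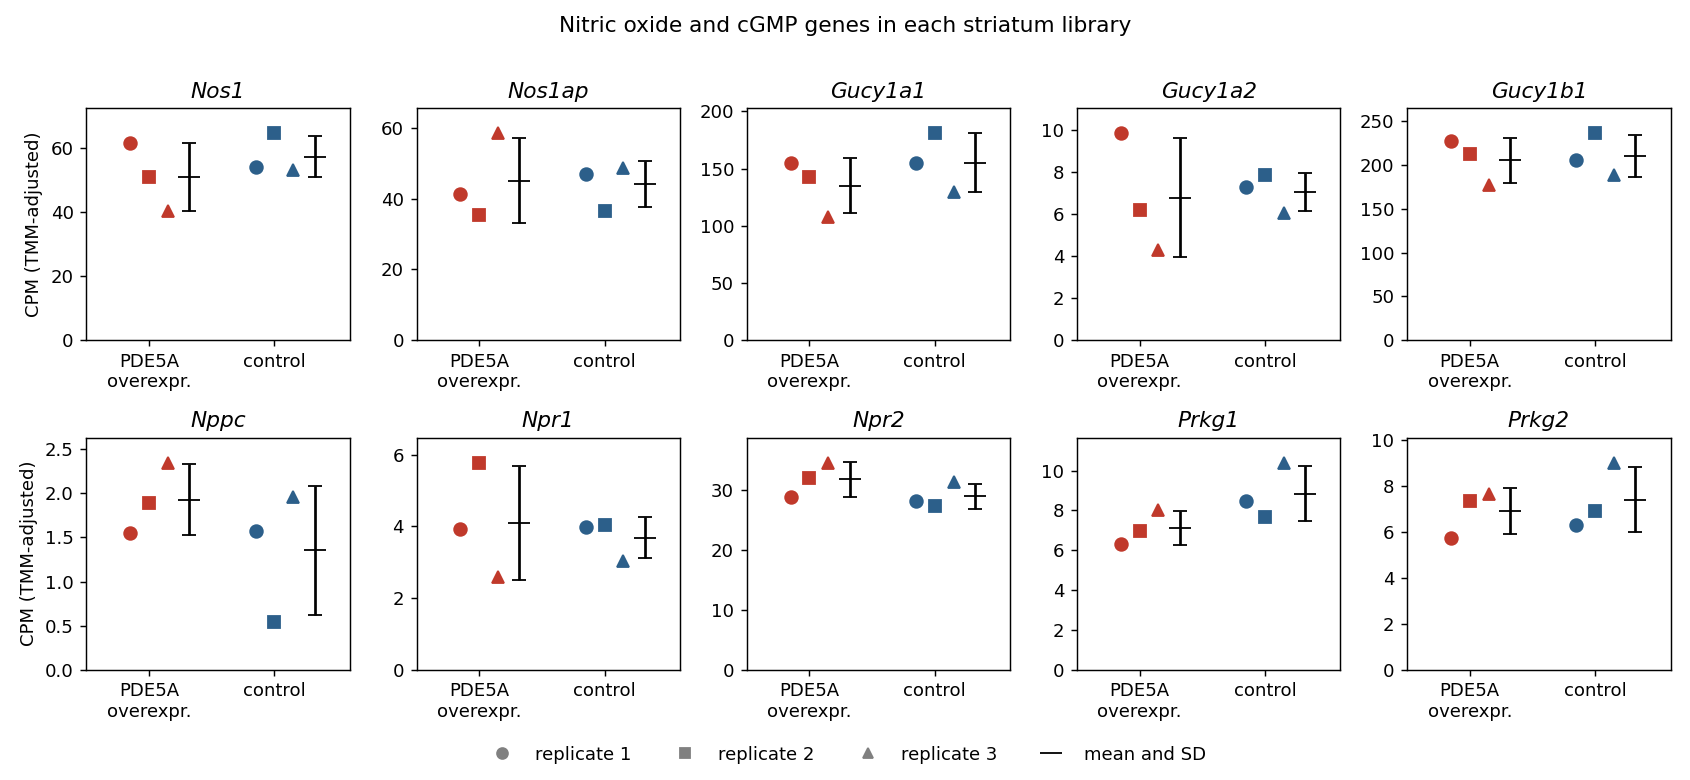
Level of each gene in CPM (vertical axes from 0) in the 3 overexpression libraries (red, left) and the 3 control libraries (blue, right), with replicates as symbols and the group mean and SD in black. The 2 groups overlap in all 10 panels, and Gucy1a2 and Npr1 spread most widely among the overexpression libraries.

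Nos1, the neuronal nitric oxide synthase, is on chromosome 5 (117781032 to 117958840, plus strand, mm10). It had 61.6, 51.0 and 40.5 CPM in overexpression replicates 1 to 3, against 54.3, 64.8 and 53.1 CPM in control replicates 1 to 3. The highest value was in control replicate 2 and the lowest in overexpression replicate 3, and overexpression replicate 1 lay above 2 of the controls. The log2 fold change was −0.17 (SE 0.16), with a 95% interval of −0.54 to 0.20. Nos1ap, the adaptor that links this synthase to other proteins, is on chromosome 1 (170302668 to 170589861, minus strand). It had 41.4, 35.4 and 58.5 CPM in overexpression, against 46.9, 36.6 and 48.7 CPM in control. The highest and the lowest values were both in overexpression libraries, replicates 3 and 2. Its log2 fold change was 0.04 (SE 0.20), with an interval of −0.45 to 0.52, and −0.20 without overexpression replicate 3 or −0.08 without control replicate 2.

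The ratio of Nos1ap to Nos1, in counts per kilobase of exon, was 1.03, 1.07 and 2.22 in overexpression and 1.33, 0.868 and 1.41 in control. An exact two-sided permutation test gave p = 0.8, and adjusted over the 5 ratios tested p = 1.0. With 3 samples against 3 no p below 0.1 can be had. The high ratio stood in overexpression replicate 3, and the difference in log2 ratio, 0.20 over all libraries, was −0.16 without it and −0.02 without control replicate 2.

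Of the soluble guanylyl cyclase genes, Gucy1a1 and Gucy1b1, which encode the alpha-1 and beta-1 subunits, had the most counts in every library. Gucy1b1 (chromosome 3, 82032006 to 82074689) had 227, 212 and 177 CPM in overexpression, against 206, 237 and 189 CPM in control. The 2 groups interleaved, from control replicate 2 at the top to overexpression replicate 3 at the bottom. The log2 fold change was −0.03 (SE 0.12), and its 95% interval, the narrowest among the cyclase subunits, corresponded to 0.81 to 1.18 times the control level. Leaving out control replicate 2 or overexpression replicate 3 gave 0.06 in each case.

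Gucy1a1 (chromosome 3, 82092427 to 82145789) had 155, 143 and 108 CPM in overexpression, against 155, 181 and 130 CPM in control. Overexpression replicate 3 was the lowest library and control replicate 2 the highest. This gave a log2 fold change of −0.20 (SE 0.17), with an interval of −0.59 to 0.19. Gucy1a2, the alpha-2 subunit (chromosome 9, 3532778 to 3894736, plus strand), had 9.83, 6.17 and 4.30 CPM in overexpression, against 7.25, 7.83 and 6.04 CPM in control. Both extremes were overexpression libraries, so that its SD was 2.81 CPM there and 0.913 CPM in control (n = 3 each). Its log2 fold change was −0.06 (SE 0.29). It was −0.43 without overexpression replicate 1, 0.19 without overexpression replicate 3, 0.01 without overexpression replicate 2 and 0.03 without control replicate 2.

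Within libraries the alpha-1 transcript exceeded alpha-2 in counts per kilobase by 15.004, 22.09 and 23.97 times in overexpression and 20.39, 22.07 and 20.52 times in control. The low value belonged to overexpression replicate 1, and the exact permutation p was 1.0. The log2 difference was −0.07, and 0.13 without that library. The sum of both alpha transcripts over the beta-1 transcript was 0.409, 0.396 and 0.358 in overexpression and 0.445, 0.451 and 0.407 in control. Overexpression replicate 1 lay just above control replicate 3 and the other 2 overexpression libraries below all controls. The mean ratio was 0.388 ± 0.0262 in overexpression and 0.434 ± 0.0237 in control (SD, n = 3), a log2 difference of −0.17 with an exact two-sided permutation p of 0.2 (adjusted p = 0.5 over 5 ratios).

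In the natriuretic peptide branch, Nppc encodes C-type natriuretic peptide, Npr2 its receptor cyclase and Npr1 the receptor cyclase for atrial and brain natriuretic peptides. Nppc (chromosome 1, 86666291 to 86670571, minus strand) was the lowest of the 10 in counts, with 61, 63 and 88 in overexpression and 66, 22 and 79 in control. These were 1.55, 1.89 and 2.35 CPM in overexpression and 1.57, 0.536 and 1.95 CPM in control. A single library, control replicate 2, stood far below the other 5, and its 22 counts have an exact 95% Poisson interval of 13.8 to 33.3, which covers counting error only. On the log2 scale the fold change was 0.51 (SE 0.44), with the widest interval of the 10, −0.51 to 1.53. Without control replicate 2 it was 0.13.

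Npr2 (chromosome 4, 43631935 to 43651244, plus strand) had 28.8, 32.0 and 34.6 CPM in overexpression, against 28.2, 27.4 and 31.3 CPM in control. Overexpression replicate 3 was the highest library and control replicate 2 the lowest. Its log2 fold change was 0.13 (SE 0.09), with an interval of −0.09 to 0.35, and it kept its sign in all 16 other settings. Npr1 (chromosome 3, 90450591 to 90465866, minus strand) had 3.93, 5.78 and 2.59 CPM in overexpression, against 3.98, 4.05 and 3.02 CPM in control. Its highest level was in overexpression replicate 2, the library with the most choroid plexus RNA (Ttr at 2243 CPM), and its lowest in overexpression replicate 3 (Ttr at 22.5 CPM). Overexpression replicate 1, with Ttr at 481 CPM, lay below control replicates 1 and 2 in Npr1, where Ttr was at 48.5 and 32.6 CPM. The resulting log2 fold change of Npr1 was 0.15 (SE 0.29). It was −0.18 without overexpression replicate 2, −0.37 with the choroid plexus marker level as a covariate and −0.51 without overexpression replicates 1 and 2. The part of choroid plexus RNA in the Npr1 values was not tested further.

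The ratio of Npr1 to Npr2 in counts per kilobase was 0.133, 0.176 and 0.0730 in overexpression and 0.138, 0.144 and 0.0940 in control, with an exact permutation p of 0.8. In both groups replicate 3 had the lowest ratio, and the values in overexpression spanned those in control. The log2 difference was −0.04, but 0.31 when overexpression replicate 3 was left out, and 0.04 and 0.07 when control replicate 1 or 2 was.

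Of the cGMP-dependent kinases, Prkg1 encodes the soluble type I kinase, with both of its isoforms in 1 gene-level count, and Prkg2 the membrane-bound type II kinase. Prkg1 (chromosome 19, 30564489 to 31765033, minus strand) had 6.33, 6.98 and 8.03 CPM in overexpression, against 8.45, 7.68 and 10.4 CPM in control. Overexpression replicates 1 and 2 lay below all controls and replicate 3 above control replicate 2. The means were 7.12 ± 0.859 CPM in overexpression and 8.84 ± 1.40 CPM in control (SD, n = 3). The log2 fold change, −0.31 (SE 0.16), had the smallest unadjusted p of the 10, 0.0835, but did not pass the test. Its interval was −0.68 to 0.05 and its sign was negative in all 16 other settings, from −0.41 to −0.14.

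Prkg2 (chromosome 5, 98929773 to 99037351, minus strand) had 5.75, 7.34 and 7.63 CPM in overexpression, against 6.27, 6.92 and 9.01 CPM in control. The groups overlapped, with the highest value in control replicate 3. The log2 fold change was −0.10 (SE 0.18), but 0.07 without control replicate 3 and 0.02 without overexpression replicate 1. The ratio of Prkg1 to Prkg2 in counts per kilobase was 0.544, 0.470 and 0.520 in overexpression and 0.665, 0.548 and 0.570 in control. This was the only one of the 5 ratios whose groups did not overlap. Its exact two-sided permutation p was 0.1, the smallest that this design allows, and 0.5 when adjusted over the 5 ratios.

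**Figure D2:**
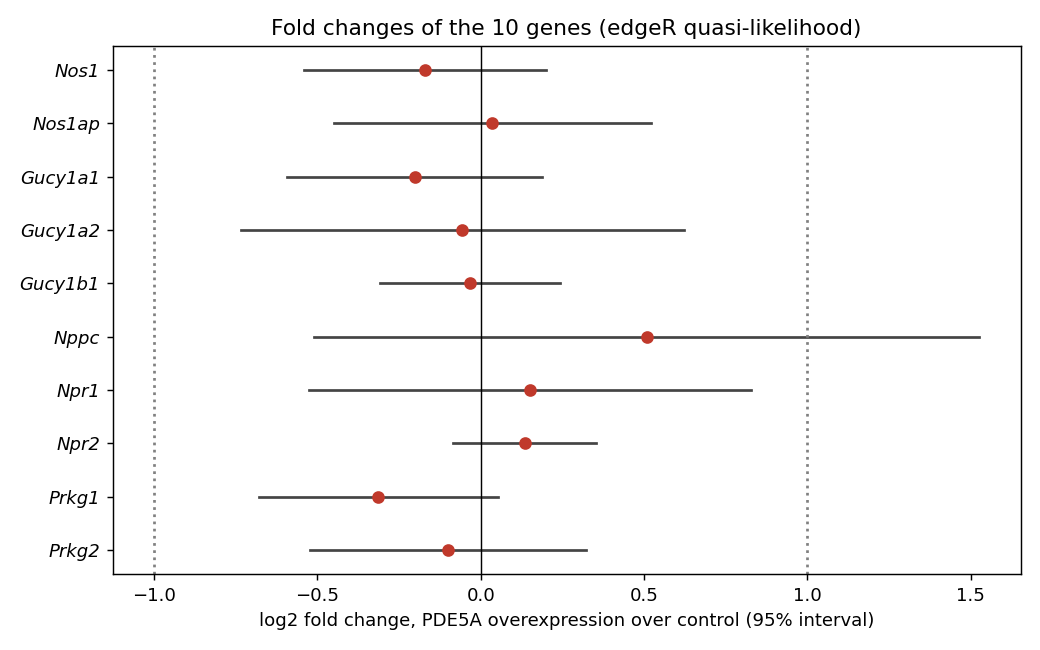
Log2 fold change of each gene, overexpression over control, with its 95% interval from the edgeR fit. Dotted lines mark a 2-fold difference in either direction, and every interval includes 0, from the narrow one of Npr2 to the wide one of Nppc.

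Compared per length, the order of the 10 transcripts was led by the soluble cyclase. Gucy1b1 had 52.3 ± 6.59 CPM per kilobase of exon in overexpression and 53.6 ± 6.20 in control, and Gucy1a1 followed with 19.4 ± 3.48 in overexpression and 22.3 ± 3.67 in control (SD, n = 3). The ranges of these subunits did not overlap each other or those of any other member. Npr2, Nos1ap and Nos1 came next, at 6.81, 6.22 and 4.58 CPM per kilobase in overexpression and 6.21, 6.07 and 5.15 in control. The ranges of Npr2 and Nos1ap overlapped in both groups, as did those of Nos1ap and Nos1. The other 5 lay between 0.655 and 1.85 in overexpression and between 0.770 and 1.38 in control. Among them Prkg2 exceeded Prkg1 in every library, and Gucy1a2 and Npr1 overlapped in overexpression but not in control. Lengths are the union of all annotated exons, which understates levels for genes with many alternative exons.

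**Figure D3:**
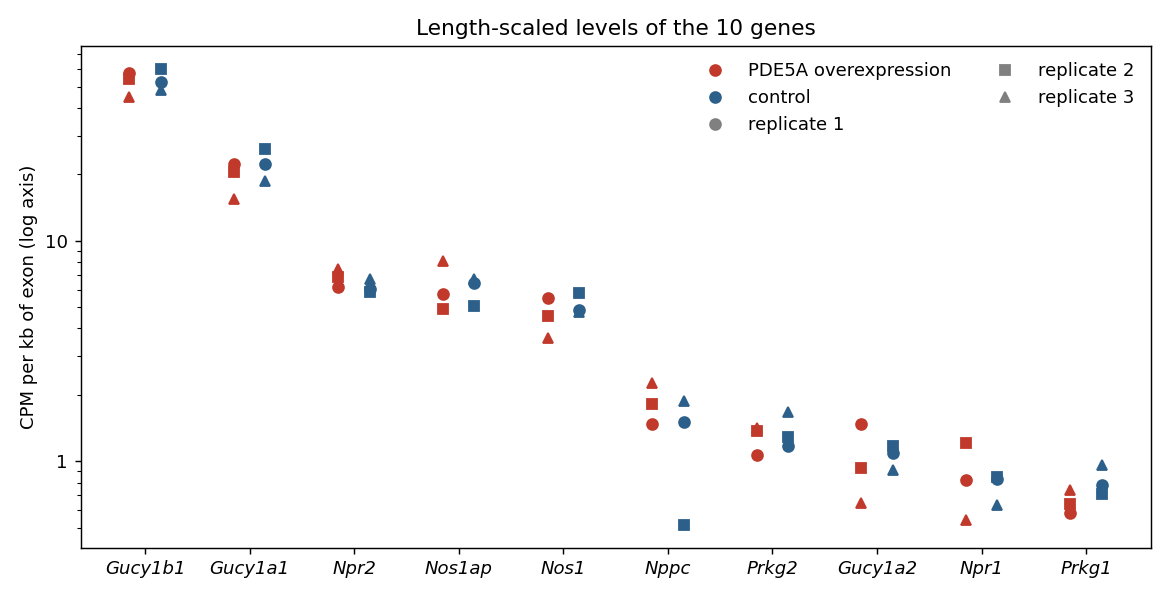
Level of each gene in CPM per kilobase of annotated exon, on a log axis, in each overexpression (red, left) and control (blue, right) library. Gucy1b1 and Gucy1a1 stand above a middle group of Npr2, Nos1ap and Nos1 and a low group of 5 genes.

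Several of the 10 genes, though not all, varied among libraries together with neuronal markers. The mean log2 CPM of 10 medium spiny neuron markers (Ppp1r1b, Rgs9 and others) was 9.66, 9.30 and 8.71 in overexpression replicates 1 to 3, against 9.26, 9.67 and 8.89 in control replicates 1 to 3. That of the 8 cortical markers was 4.40, 5.36 and 6.37 in overexpression, against 5.17, 2.87 and 5.97 in control. The medium spiny level was therefore high where the cortical level was low (Pearson r = −0.90, Spearman rho = −0.94, exact permutation p = 0.00556 for r, n = 6). Each of the 10 genes was set against both levels over the 6 libraries, which made 20 relations, chosen after the values were seen. The same relations were not computed over all genes, so they cannot be called particular to the 10. All values of a library share its depth and scaling. Values within groups were taken as deviations from the group means, with an exact permutation p over the 36 orders of the level within groups, of which 0.0278 is the smallest possible. The 2 levels ran in opposite directions, so relations to one cannot be told apart from relations to the other. In bulk tissue, fewer cells of a type and less RNA per cell cannot be told apart.

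Gucy1b1 ranked the 6 libraries exactly as the medium spiny markers did (r = 0.99, rho = 1.0, exact permutation p = 0.00278 for both, adjusted 0.0278 over the 20). Without the 2 libraries farthest from the median level, control replicate 2 and overexpression replicate 3, r was still 0.99, and within groups it was 0.99 (exact permutation p = 0.0278). Gucy1a1 had r = 0.92 and rho = 0.83 (exact permutation p = 0.0167 and 0.0583, adjusted 0.0370 and 0.0972), with r = 0.83 without those libraries and 0.99 within groups (p = 0.0278, exact). Gucy1a2 had r = 0.90 and rho = 0.89 (exact permutation p = 0.0139 and 0.0333, adjusted 0.0347 and 0.0741), with r = 0.86 without them and 0.91 within groups (p = 0.0556, exact). Against the cortical level r was −0.92 for Gucy1b1, −0.91 for Gucy1a1 and −0.73 for Gucy1a2, with rho = −0.94 for each. Their exact permutation p for r was 0.00556, 0.00556 and 0.075 (adjusted 0.0278, 0.0278 and 0.115), and without the 2 farthest libraries r was −0.95, −0.87 and −0.94. Against the medium spiny level the fitted slope was 0.40 for Gucy1b1, 0.59 for Gucy1a1 and 0.92 for Gucy1a2. Slopes are in log2 CPM of the gene per unit of marker level, and differences between them were not tested.

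Nos1 had r = 0.89 and rho = 0.83 against the medium spiny level (exact permutation p = 0.0194 and 0.0583, adjusted 0.0389 and 0.0972), with r = 0.72 without the 2 farthest libraries and 0.95 within groups (p = 0.0278, exact). Against the cortical level it had r = −0.86 and rho = −0.94 (exact permutation p = 0.00833 and 0.0167, adjusted 0.0278 and 0.0476), with r = −0.82 without the 2 farthest libraries. For 7 markers of somatostatin interneurons, the mean log2 CPM (Sst, Npy, Chodl and 4 others) was 3.27, 3.60 and 3.53 in overexpression and 3.55, 3.10 and 3.83 in control, so that control replicate 2, the highest in Nos1, was the lowest in these markers. Single markers differed in this. Chodl had 1.17, 1.65 and 0.801 CPM in overexpression and 1.77, 2.46 and 1.90 CPM in control. Tacr1 had 26.5, 20.7 and 11.3 CPM in overexpression and 18.8, 32.5 and 16.0 CPM in control, so that, like Nos1, both were highest in control replicate 2 and lowest in overexpression replicate 3. Crhbp had 3.24, 7.88 and 10.97 CPM in overexpression and 6.11, 1.61 and 10.7 CPM in control, with its lowest value in control replicate 2. Sst itself ranged from 96.3 to 115 CPM in overexpression and from 87.4 to 131 CPM in control. Like Crhbp, Sst, Npy and Cort were lowest in control replicate 2, at 87.4, 25.3 and 0.585 CPM. Lhx6 was highest in control replicate 3 (18.2 CPM) and lowest in overexpression replicate 3 (14.5 CPM).

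Nppc went the other way and ranked the libraries exactly as the cortical markers did (r = 0.95, rho = 1.0, exact permutation p = 0.00278 for both, adjusted 0.0278), with r = 0.85 without the 2 farthest libraries and 0.97 within groups (p = 0.0278, exact). Npr2 was also higher where cortical markers were higher (r = 0.83, rho = 0.89, exact permutation p = 0.0139 and 0.0333, adjusted 0.0347 and 0.0741), with r = 0.64 without them and 0.84 within groups (p = 0.0833, exact). For Nos1ap, r was −0.81 against the medium spiny level and 0.71 against the cortical level (exact permutation p = 0.05 and 0.0917, adjusted 0.0909 and 0.131), and without the 2 farthest libraries these became −0.50 and 0.33. Npr1, Prkg1 and Prkg2 had unadjusted exact permutation p of 0.106 to 0.394 for r against either level. Leaving out the 2 farthest libraries moved r against the medium spiny level to −0.94 for Prkg1 (−0.65 over all 6), −0.91 for Prkg2 (−0.72) and 0.44 for Npr1 (0.65). Against the cortical level it moved to 0.86 for Prkg1 (0.42 over all 6), 0.95 for Prkg2 (0.51) and −0.28 for Npr1 (−0.43). Within groups Prkg1 had r = −0.96 against the medium spiny level and 0.92 against the cortical level (p = 0.0278 and 0.0556, exact). Prkg2 had −0.76 and 0.62 within groups (p = 0.194 and 0.25, exact), and Npr1 0.66 and −0.49 (p = 0.25 and 0.306, exact).

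**Figure D4:**
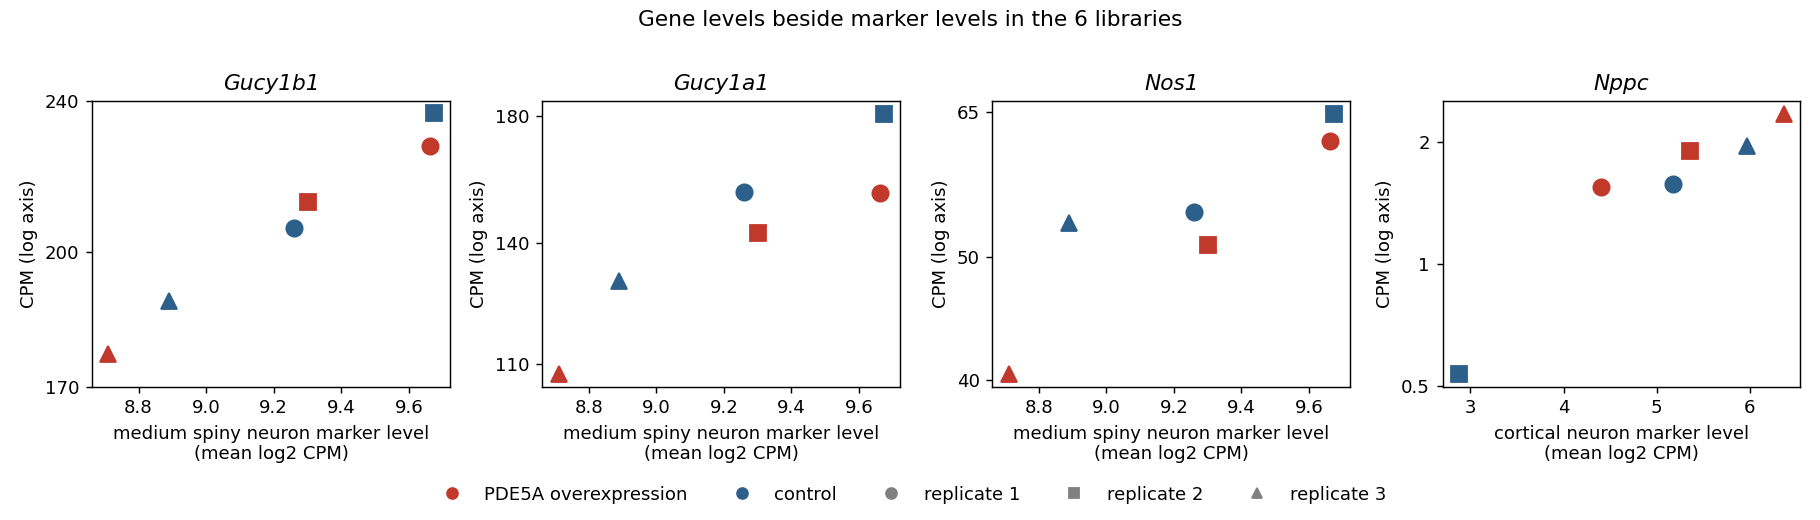
Level of 4 genes in CPM (log axis) beside the mean log2 CPM of medium spiny or cortical markers in the same library, with overexpression in red and control in blue. Gucy1b1, Gucy1a1 and Nos1 are highest in control replicate 2 and lowest in overexpression replicate 3, and Nppc is the reverse, with groups intermixed along each relation.

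With the medium spiny level as a covariate, a setting chosen after the values were seen, the log2 fold change of Gucy1b1 was −0.02 (SE 0.05), that of Gucy1a1 −0.18 (SE 0.05) and that of Nos1 −0.16 (SE 0.07). The edgeR adjusted p was 0.995 for Gucy1b1, 0.445 for Gucy1a1 and 0.701 for Nos1. Prkg1 had −0.33 (SE 0.12) and an adjusted p of 0.598 in the same fit. Of the 10 genes, 3 (Gucy1a1, Nos1 and Prkg1) had an unadjusted p under 0.05 there, as did 6.77% of all genes. With the cortical level instead, Prkg1 was at −0.41 with an adjusted p of 0.774, and was the 1 gene of the 10 with an unadjusted p under 0.05, beside 4.99% of all genes. With replicate number as a block, 2 of the 10 (Gucy1a1 and Prkg1) had an unadjusted p under 0.05, as did 4.56% of all genes. Leaving out overexpression replicate 1 gave 1 of the 10 (Nos1), beside 5.09% of all genes. Leaving out overexpression replicate 3 gave 1 (Prkg1), beside 4.28%. Without overexpression replicates 1 and 2, where the lone overexpression library is assumed to vary like the controls, Gucy1a1 was at −0.53, Gucy1a2 at −0.71 and Nos1 at −0.51. These 3 had an unadjusted p under 0.05 in that fit, beside 7.13% of all genes, and the smallest adjusted p among the 10 was 0.693. That remaining library, overexpression replicate 3, had the lowest medium spiny and the highest cortical level of the 6.

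**Figure D5:**
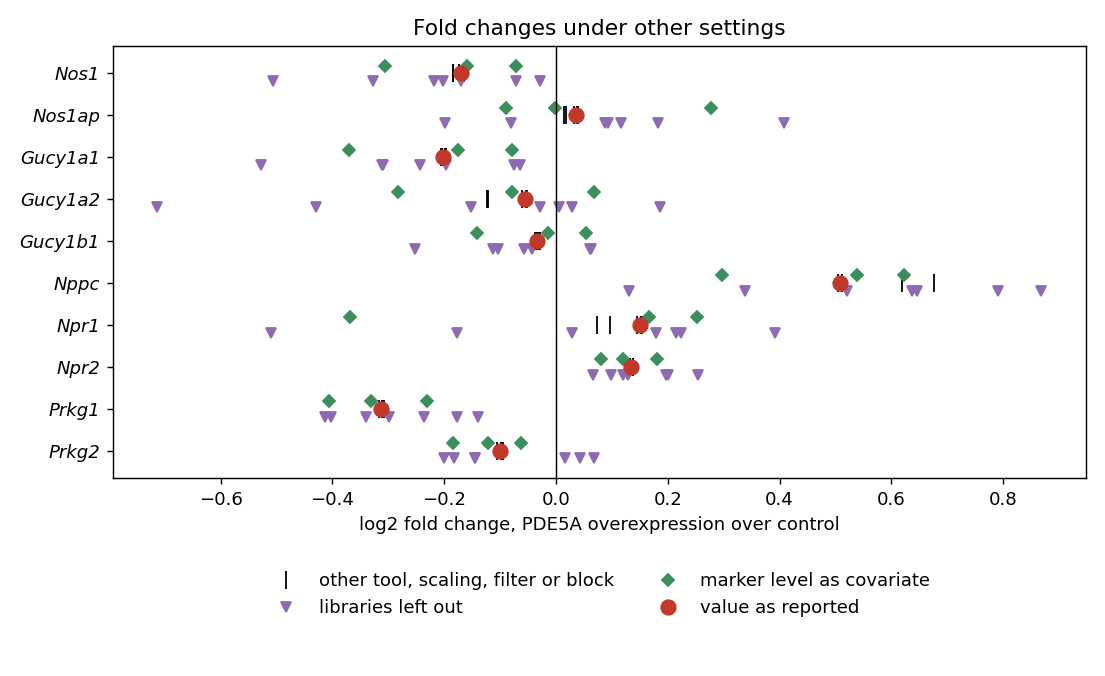
Log2 fold change of each gene, overexpression over control, as reported (red) and under 16 other settings, with libraries left out in purple, marker levels as covariates in green and other tools, scalings, filters or the block in black. Gucy1a1, Nos1 and Prkg1 stay below 0 and Npr2 and Nppc above it, while the other 5 fall on both sides.

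Of 43 further genes of the pathway, 33 were tested and 0 passed in either direction, with 17 positive and 16 negative log2 fold changes and a median of 0.02. At an unadjusted p under 0.05 in edgeR there was 1 of the 33, where the share among all genes was 3.89%. Groups did not overlap for 2 of the 33, beside 8.93% of all genes tested. Among other cyclases, peptides, synthases and the clearance receptor, 7 of 11 were tested, and none had groups that did not overlap. Gucy2e, which encodes a membrane cyclase known from photoreceptors, had 7.42, 5.41 and 5.18 CPM in overexpression and 2.79, 1.88 and 6.66 CPM in control, a log2 fold change of 0.67 (SE 0.46). Gucy2c, an intestinal receptor cyclase, had 11, 0 and 0 counts in overexpression and 16, 8 and 15 in control. Nos2, the inducible synthase, had 0, 9 and 17 counts in overexpression and 17, 20 and 15 in control. Both sets of counts are too low for a firm value. Nppa and Nppb, the genes of the atrial and brain peptides, had at most 18 counts in any library and were not tested.

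Among genes that supply nitric oxide synthase or regulate it, 18 of 19 were tested and 0 passed. Ddah1, which breaks down the endogenous synthase inhibitor dimethylarginine, had 123.5, 114.7 and 100.5 CPM in overexpression, against 130.4, 130.6 and 128.6 CPM in control. All 3 overexpression libraries lay below all 3 controls, and the log2 fold change was −0.20 (SE 0.08) with an unadjusted p of 0.0452 and an adjusted p of 1.0 in edgeR. Calm2, a calmodulin gene whose product activates Nos1, had 1490, 1531 and 1392 CPM in overexpression, against 1353, 1371 and 1350 CPM in control. Its groups did not overlap either, which held for 8.93% of all genes tested. The Calm2 log2 fold change of 0.12 (SE 0.08) did not pass (unadjusted p = 0.167 in edgeR). Rasd1, a small GTPase known to bind Nos1ap, had 1.47, 2.71 and 2.54 CPM in overexpression, against 4.01, 2.54 and 2.92 CPM in control. Its groups overlapped and its log2 fold change was −0.50 (SE 0.29). Astrocytes are a known site of Ddah1, and the mean log2 CPM of 6 astrocyte markers (Aqp4, Aldh1l1, Slc1a2 and others) was 7.68, 7.54 and 7.50 in overexpression and 7.81, 7.66 and 7.82 in control. Their part in the Ddah1 values was not tested.

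Among other effectors and kinase substrates, 8 of 13 were tested and 0 passed. Vasp, a substrate of Prkg1 that binds actin, had 10.5, 12.4 and 10.1 CPM in overexpression and 10.5, 9.26 and 8.88 CPM in control, a log2 fold change of 0.20 (SE 0.13). Cnga4, a subunit of cyclic nucleotide-gated channels, had a log2 fold change of 0.43 (SE 0.31) with means of 1.11 CPM in overexpression and 0.818 CPM in control. Itpr1, the calcium release channel, had 1168, 924 and 756 CPM in overexpression and 1012, 1257 and 912 CPM in control. As with Gucy1a1 and Nos1, its highest library was control replicate 2 and its lowest overexpression replicate 3.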

How the data were processed

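RNA from 6 striatum samples, grouped by their titles, was made into strand-specific TruSeq libraries after Trizol isolation, per the labels' protocols. The deposited files hold raw, whole-number counts for Ensembl genes, 1 file for each sample. The submitters' processing notes list FastQC 0.11.5, STAR 2.5.3a, Cuffnorm, DESeq 1.16.1 and mm10. No counting program or strand setting was stated. Without strand, Npr1, Npr2 and Nos1 could include reads of antisense genes. These were Gm16048 with 1 to 3 counts in a library, Gm12473 with 34 to 79 and Gm26995 with 0 to 6, respectively. Nos1ap shares exon sequence with Gm7694 (114 to 196 counts). At most 7.57% of a gene's distinct stretches of 50 bases occur in another gene (Npr1).

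Of 55335 identifiers, 55154 matched GENCODE release M21, also the source of coordinates. Counts were tested with edgeR 4.0.16 (R 4.3.3; TMM, filterByExpr, robust quasi-likelihood F-test, two-sided). All 10 genes passed the filter. Standard errors are the absolute log2 fold change over the square root of F, and 95% intervals use the fit's degrees of freedom. Marker levels are mean log2 CPM with a prior count of 2. Ratios and relations had exact permutation tests (scipy 1.17.1). On counts simulated for this comparison over 19809 genes, of which 200 were changed, 78% of 2-fold and 92% of 4-fold changes were recovered. The 21 false calls among 191 were a larger share than the threshold of 0.05. With 200 changed genes the adjustment is milder than in the data, where 1 gene passed. These shares therefore do not give the power for the 10 genes.

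The genes and lists were chosen with earlier results of these data known. The text names all 10 genes, Pde5a, the 3 genes of each pathway list with the smallest p, and the leading markers of each list used. Nppa, Nppb, and the single values of Ttr, Chodl, Tacr1, Crhbp, Lhx9, Sst, Npy, Cort and Lhx6, were named after their values were seen. So were the thalamic markers listed by the overlap of their groups. No label ties samples to separate animals, so p-values may reflect only technical spread. Replicates differed beyond sampling noise, with chi-square over degrees of freedom between 19.1 and 49.6, and counted as separate samples. Alternatives were DESeq2 1.42.0 size factors and Wald test, limma-voom (limma 3.58.1), other filters on low counts, a replicate block, marker levels as covariates and libraries left out. The labels give no batch. Some single marker genes are not reported here.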

Additional observations from a re-analysis of the deposited data

How the results depend on the processing

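Under the 16 other settings 0 of the 10 genes passed, and 0 of the other pathway genes tested. The smallest adjusted p among the 10 in any setting was 0.445. The count of all genes past the threshold, 1 in the reported fit, was 83 with the DESeq2 Wald test, 5 with limma-voom, 3 without a filter on low counts, 2 with cortical marker level as a covariate, 8 with medium spiny marker level as a covariate (added after seeing the data) and 5 without overexpression replicates 1 and 2. It was 1 to 2 when 1 library was left out. The replicate numbers have no stated meaning, and deviations of same-numbered samples from their group means correlated at −0.02, 0.03 and 0.29. With replicate number as a block, 3 genes passed and 0 of the 10, and Gucy1a1 and Prkg1 had unadjusted p of 0.0445 and 0.0485, where the share of all genes under 0.05 was 4.56%. In edgeR the unadjusted p for Nos1 was 0.0469 without overexpression replicate 1, and that for Prkg1 was 0.0455 without overexpression replicate 3, where 5.09% and 4.28% of all genes were under 0.05.

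Leaving out 1 library gave log2 fold changes of −0.430 to 0.186 for Gucy1a2, −0.112 to 0.0623 for Gucy1b1, −0.198 to 0.183 for Nos1ap, −0.176 to 0.392 for Npr1 and −0.201 to 0.0681 for Prkg2. The other 5 kept their sign, at −0.312 to −0.0648 for Gucy1a1, −0.328 to −0.0282 for Nos1, −0.412 to −0.178 for Prkg1, 0.0669 to 0.201 for Npr2 and 0.130 to 0.868 for Nppc. Adjusted for cortical marker level, the sign also turned for Gucy1a2 (0.0672), Gucy1b1 (0.0540) and Nos1ap (−0.0894). Nos1ap was at −0.0016 with the medium spiny level and Npr1 at −0.368 with the choroid plexus level. Without overexpression replicates 1 and 2, Npr1 was at −0.511 and Prkg2 at 0.0426. The cause of these turns was not tested. Ranges of the log2 ratio with 1 library left out were −0.205 to 0.133 for Gucy1a1 over Gucy1a2, −0.321 to 0.313 for Npr1 over Npr2 and −0.162 to 0.390 for Nos1ap over Nos1. With TMM, Nppc had r = −0.726 and rho = −0.943 against the medium spiny level (exact permutation p = 0.00833 for r, adjusted 0.0278 over the 20 relations). With library totals in place of TMM, this relation had r = −0.688 and an exact permutation p of 0.0528. Nppc was not tested where 1 CPM was required in all 6 libraries. Depth limited Nppc, with 22 counts in 1 library, more than any other of the 10.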
